A study of Drosophila melanogaster with 12 samples.

Results

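Proximal 3R is the stretch of the right arm of chromosome 3 that lies next to the centromere, cytological division 81, and it consists largely of pericentric heterochromatin. Its windows were those of the rawRT table on 3R that start at or before position 4215314 of the dm6 assembly, the end of the gene CG14636, so that the choice rested on position and on no measured value. This gave 2166 of the 118985 windows of the 5 long chromosome arms, or 1.82%. Each window holds 1000 uniquely alignable bases, so the satellite repeats between them were not measured.

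The study compared replication timing (RT) between polyploid and diploid Drosophila melanogaster tissues and between genotypes, in 12 libraries of genomic DNA, 2 per group. Salivary glands came from female larvae of the third instar before wandering, about 20 per genotype, of Oregon R (wild type), of SuUR larvae carrying SuUR ES in a w118 stock, and of Rif1 larvae with the null alleles Rif1 1/Rif1 2 in a w118 stock. The wild-type fat body came from Oregon R female larvae, 25 per replicate, at 96 h after egg laying. Follicle cells came from about 200 pairs of ovaries of Oregon R females fattened for 2 days, and wing discs from female larvae of the third instar of a yellow white stock. Both mutant stocks differ from Oregon R in background as well as in the named gene, so genotype and background cannot be told apart, and in the wing disc strain and tissue cannot be told apart either. The salivary gland and fat body groups were biological duplicates according to the study's methods. For the follicle cells and wing discs nothing states this, and their p-values measure only the spread between these libraries.

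Heterochromatin next to the centromere replicates late in S phase. In polytene cells such as those of the salivary gland, whose chromosomes are copied many times without division, it is barely copied at all and is called underreplicated (UR). SUUR, a protein of late-replicating chromatin, slows replication forks there, and Rif1, which binds protein phosphatase 1 and delays late origins, acts together with it. In the salivary gland and fat body profiles, made by TIGER from the read depth of unsorted DNA, the score of a window falls both with later replication and with underreplication, and these cannot be told apart. Follicle cell and wing disc scores came from sorted S-phase nuclei set against G1 (the G1/S method), and their scale is another one.

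To show what the windows hold, the central 300 bases of a window from each of 4 stretches are given, read from the dm6 assembly on the plus strand. Windows without exons and of at most 1001 bases were considered, and the lowest or highest salivary gland score in each stretch chose among them. Capitals mark AATAT and its reverse complement ATATT, the unit of a simple Drosophila satellite. None of the 4 lies in an annotated gene.

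Deep stretch, lowest wild-type score, chr3R:445660-445959: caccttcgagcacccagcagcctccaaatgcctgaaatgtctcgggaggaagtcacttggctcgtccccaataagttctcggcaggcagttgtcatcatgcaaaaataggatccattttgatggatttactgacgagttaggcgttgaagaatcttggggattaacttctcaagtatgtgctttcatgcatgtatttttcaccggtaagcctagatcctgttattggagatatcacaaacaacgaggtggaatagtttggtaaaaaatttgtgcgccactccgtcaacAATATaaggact

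Slope, highest SuUR score, chr3R:3383750-3384049: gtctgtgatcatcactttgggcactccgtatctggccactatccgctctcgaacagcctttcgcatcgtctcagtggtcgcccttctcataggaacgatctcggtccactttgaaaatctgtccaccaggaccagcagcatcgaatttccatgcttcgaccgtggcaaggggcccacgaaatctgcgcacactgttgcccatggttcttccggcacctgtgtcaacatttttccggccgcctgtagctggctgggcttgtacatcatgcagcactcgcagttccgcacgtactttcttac

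Island, highest wild-type score, chr3R:3773950-3774249: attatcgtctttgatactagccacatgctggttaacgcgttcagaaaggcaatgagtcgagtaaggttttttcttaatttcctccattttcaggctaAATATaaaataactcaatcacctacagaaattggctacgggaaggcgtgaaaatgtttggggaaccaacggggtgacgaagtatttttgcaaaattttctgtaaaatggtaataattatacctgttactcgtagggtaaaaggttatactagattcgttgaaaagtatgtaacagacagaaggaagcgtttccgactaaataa

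Second low stretch, lowest wild-type score, chr3R:3992950-3993249: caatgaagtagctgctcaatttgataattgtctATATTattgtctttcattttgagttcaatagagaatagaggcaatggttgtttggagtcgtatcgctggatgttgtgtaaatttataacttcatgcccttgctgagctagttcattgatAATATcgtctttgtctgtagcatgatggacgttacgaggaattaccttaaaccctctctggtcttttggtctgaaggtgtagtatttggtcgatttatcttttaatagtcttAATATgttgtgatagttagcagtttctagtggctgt

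At the deep window the score was -7.53 and -8.78 in the 2 wild-type salivary gland libraries, -6.24 and -7.71 in SuUR and -3.65 and -3.93 in Rif1. At the slope window it was -5.92 and -6.90 in wild type, -0.77 and 2.04 in SuUR and 4.02 and 3.43 in Rif1. At the island window the values were 0.17 and 0.29 in wild type, -0.98 and -0.40 in SuUR and -0.89 and -0.63 in Rif1. At the window of the second low stretch they were -7.06 and -8.43 in wild type, -2.61 and -3.05 in SuUR and -1.48 and -2.94 in Rif1. These windows were chosen by their scores, so the values describe the stretches and test nothing. AATAT on either strand occurred in the central 300 bases of 64.4% of the proximal 3R windows and of 60.9% of all windows of the arms, so single copies of it are common everywhere.

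Tandem copies were rare in the measured sequence. Of the 2166 windows, 6 held 3 copies of AATAT in a row (0.277%, against 0.106% of all windows) and 1 held 3 copies of AAGAG (0.0462%, against 0.0118%). The windows were poor in genes and rich in repeats: 5.91% touched an exon, against 50.9% of the windows on the rest of 3R, and the median share of soft-masked bases was 27.5% against 13.7%. Median GC content was 39.1% against 42.8%. A window spanned a median of 1101 bases and at most 30701, so some windows bridge long stretches that were not alignable. In the 8 TIGER libraries the same 29 windows had no score.

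The scores of proximal 3R were among the lowest of the arms in every polyploid library. The median over its windows was -7.42 and -8.60 in the wild-type salivary gland, -6.16 and -7.50 in SuUR, -2.89 and -3.40 in Rif1, and -8.72 and -6.10 in the fat body. The 2 Rif1 libraries lay above all 6 others, whereas those 6 overlapped between groups. Ranked within each library over all windows of the arms, the median proximal 3R window stood at percentile 1.90 and 1.72 in wild type, 1.32 and 1.07 in SuUR, 2.72 and 1.97 in Rif1 and 1.56 and 1.59 in the fat body. The rise of the Rif1 scores thus left the region among the lowest windows of the arms. In follicle cells the median percentile was 2.21 and 2.25, and in wing discs 15.6 and 11.8.

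A rawRT score is not a copy number, and its lowest possible value differs between libraries, each of which the authors scaled by its own arm SD. The lowest score also differed between arms of a library. In wild-type replicate 1 it was -8.21 on 2R (29 windows) and -6.99 on X (15 windows). Percentiles over all arms carry this difference, and its part in them was not tested. The lowest score on 3R was -7.53 in wild-type replicate 1, where 145 windows shared it, and -8.78 in replicate 2, where 64 did. In SuUR it was -6.35 (39 windows) and -7.76 (66 windows), and in fat body replicate 2 it was -6.73 (37 windows). All of these windows lay in proximal 3R. In fat body replicate 1 (-10.1) and in the Rif1 libraries (-9.73 and -9.14) a single window held it, so the true minimum there may be lower. A level was therefore added after the data had been seen: the score as a percentage of the way from the lowest score of the library on 3R (0%) to the score 0 (100%), to which the authors centred the arms. A lower true minimum would raise the levels of that library. The 0% comes from windows of the region tested, so calls on this scale describe the region and are no independent support.

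On that scale the region fell into 5 stretches, whose bounds were drawn after seeing the values and serve as a description. A deep stretch of 3171 kb (1550 windows) ran from the centromeric end to position 3171200. There the median level was 1.01% and 1.46% in the wild-type salivary gland, 2.24% and 2.30% in SuUR, 65.7% and 58.7% in Rif1 and 10.8% and 7.01% in the fat body. Wild-type and SuUR glands thus lay close to their minimum over most of the stretch, and the levels of these 4 groups did not overlap. A slope of 367 kb followed (200 windows, to 3538100), with 6.11% and 7.09% in wild type, 39.1% and 56.3% in SuUR, 78.4% and 70.4% in Rif1 and 26.3% and 22.5% in the fat body. Here SuUR stood well above wild type and below Rif1.

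**Figure D1:**
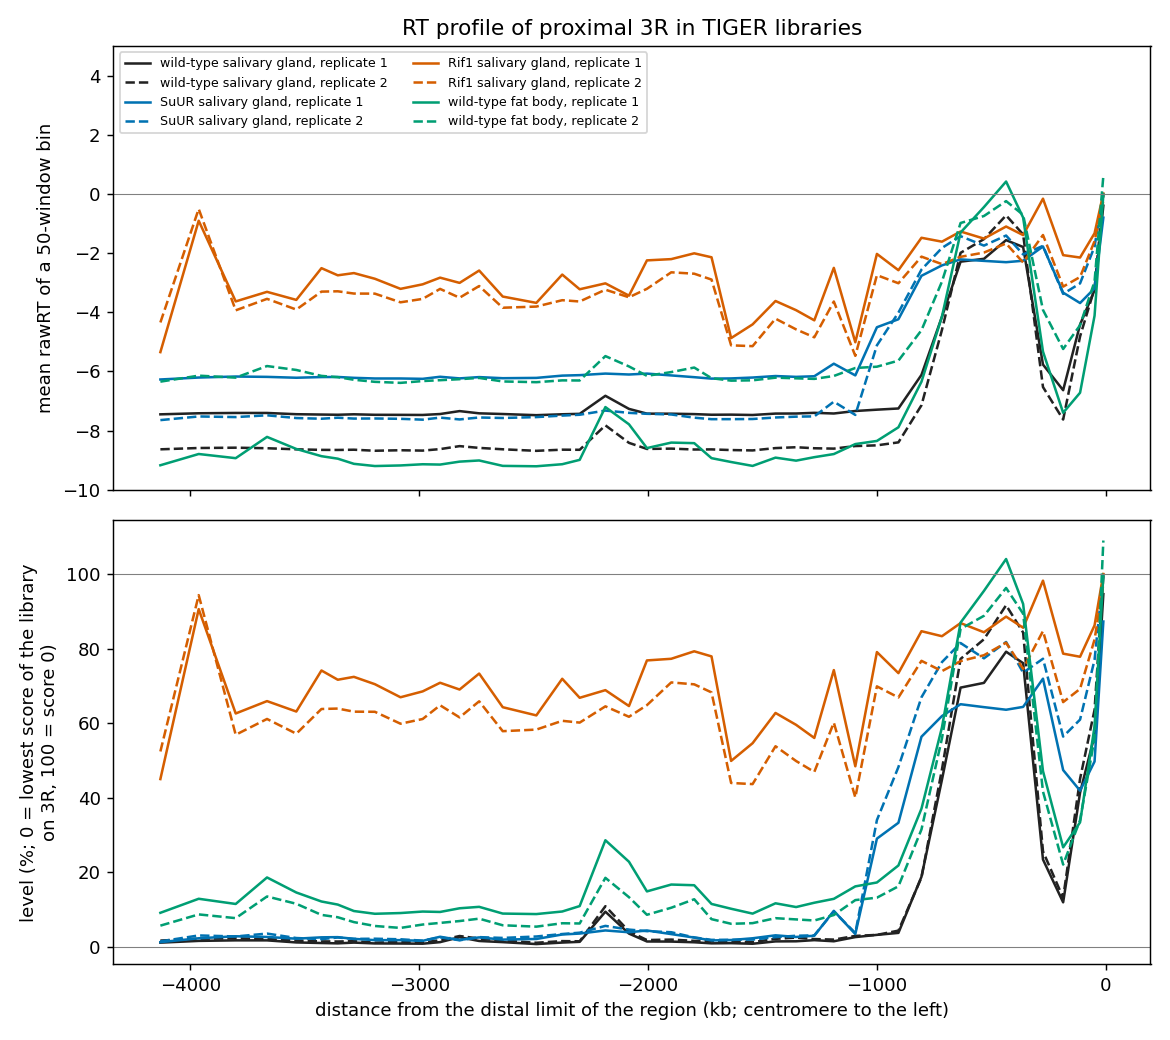
Mean rawRT (upper panel) and mean level in percent (lower panel) of bins of 50 windows along proximal 3R, against the distance of the bin from the distal limit in kb, with 1 line per TIGER library (solid, replicate 1; dashed, replicate 2). Over most of the deep stretch the wild-type and SuUR lines run near level 0, with the fat body above them. In the bin from 1963200 to 2095000 wild type rises to 9.43% and 10.9% and the fat body to 28.6% and 18.5%. The Rif1 lines run between 40.1% and 94.4% over the deep stretch.

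Beyond the slope an island of 353 kb (200 windows, to 3891200) came closer to the arm level than the other long stretches in all 8 TIGER libraries. Its median level was 73.9% and 83.2% in wild type, 63.8% and 77.4% in SuUR, 86.0% and 76.6% in Rif1 and 93.3% and 90.1% in the fat body, and the 3 salivary gland groups overlapped. A second low stretch of 303 kb (200 windows, to 4194100) came next, at 24.6% and 30.96% in wild type, 50.01% and 63.2% in SuUR, 83.0% and 72.1% in Rif1 and 33.8% and 30.6% in the fat body. Wild type and fat body overlapped there, and both lay below SuUR and Rif1. In the last 16 windows before the limit, the edge, the median level was 88.4% to 109% over the 8 libraries, and in the first 50 windows outside it was 101% to 108%. A single step fitted to each profile over windows of 3R up to position 6000000 fell at 3379300 and 3341900 in SuUR, at 3485800 and 3460100 in the fat body and at 3385400 in both follicle cell libraries. It fell at 3352100 and 3288000 in wing discs. In the wild-type salivary gland (4174500 and 3511600) and in Rif1 (3379300 and 4174500) it fell at different places in the libraries of a group. Over windows up to 8000000 the wild-type steps were at 3511600 and 3488800, close to each other, and those of Rif1 stayed at 3379300 and 4174500.

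**Figure D2:**
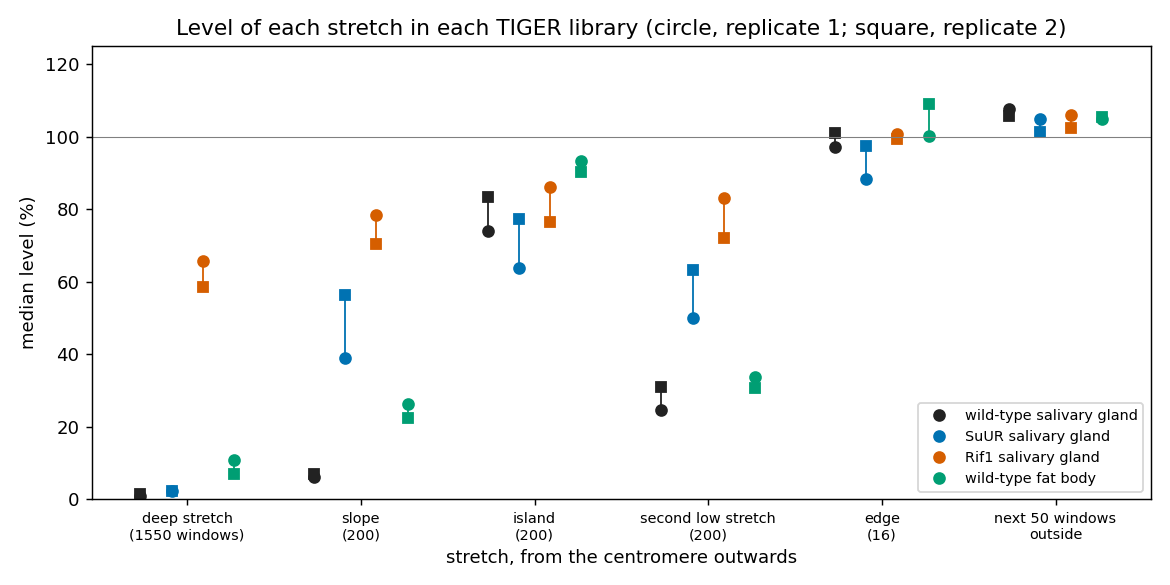
Median level in percent of the windows of each stretch, with 1 point per library (circle, replicate 1; square, replicate 2; the line joins the replicates). In the deep stretch the libraries sit at 1.01% to 10.8% except those of Rif1, at 65.7% and 58.7%, whereas on the island all lie between 63.8% and 93.3%.

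The pattern within the region repeated between libraries. Over the windows of the deep stretch, replicates of a group correlated with Pearson's r of 0.949 in wild type, 0.910 in SuUR, 0.900 in Rif1, 0.766 in the fat body, 0.931 in follicle cells and 0.547 in wing discs. The SD of the scores over these windows was 0.342 and 0.445 in wild type, 0.336 and 0.400 in SuUR and 2.48 and 2.13 in Rif1, so the Rif1 profile was uneven where the other glands were flat. Across the 43 full bins of 50 windows, the mean wild-type profile correlated with that of the fat body at r = 0.981, of SuUR at 0.867, of wing discs at 0.844, of follicle cells at 0.678 and of Rif1 at 0.577. These bins share their sequence and base composition, and the coefficients are descriptions. Within the region the Rif1 scores rose with GC content (Spearman's rho 0.327 and 0.142 over windows), whereas in wild type rho was 0.0115 and -0.0190.

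Before the comparisons, the arms were cut into bins of 50 consecutive windows. The first comparison asked how loss of SUUR changes proximal 3R in the salivary gland. SuUR scores were higher on the slope, where spok lies, and in 3 of 4 bins of the second low stretch. No difference passed the test in the deep stretch. Bins were tested with limma on the library means, with Benjamini-Hochberg adjustment over all bins of the arms. Of the 43 bins of proximal 3R, 7 were called higher in SuUR and 0 lower, that is 16.3%, against 14.8% of all bins called higher and 0.386% called lower. A share so near the background is no result about the region as a whole, and 9 of 43 bins had an unadjusted p under 0.05. The calls lay in 2 stretches: 4 of 4 slope bins, 3 of 4 bins of the second low stretch, 0 of 4 island bins and 0 of 31 deep bins. The bin from 4067400 to 4138800, which holds CG42402 and Gfat1, passed narrowly by score (difference 1.26, SE 0.282, limma adjusted p = 0.0443). On the level scale it was not called (8.21%, SE 6.39, limma adjusted p = 0.523).

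The largest of these differences was in the bin from 3891200 to 3991000, at the island's distal flank. Its mean score was -5.77 and -6.53 in wild type and -1.78 and -1.76 in SuUR, a difference of 4.38 (SE 0.277, adjusted p = 0.00230 by limma). On the slope, the bin from 3359200 to 3461100 had -6.12 and -7.14 in wild type and -2.77 and -2.56 in SuUR (difference 3.97, SE 0.359, limma adjusted p = 0.00302). In both bins the groups did not overlap and lay apart by more than the spread of either group. On the level scale these were differences of 50.1% (SE 2.53, limma adjusted p = 0.000273) and 42.997% (SE 3.78, limma adjusted p = 0.00171).

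In the deep stretch the difference in score was 0.62 to 1.63 per bin, with a median of 1.15, a median SE of 0.587 and limma adjusted p from 0.168 to 0.565. SuUR replicate 2 (median of all windows -7.50) lay below wild-type replicate 1 (-7.42). The sign of that difference depended on the scale. Windows outside the proximal parts still include euchromatic underreplicated regions, which the authors' arm SD leaves out. Their SD was 1.42 and 1.58 in wild type and 1.04 and 1.02 in SuUR. After division of each library by this SD the median difference over the deep bins was -1.35, and after quantile normalization -0.33. On the level scale it was 0.849%, with 1 deep bin called higher, from 2983400 to 3071000 (7.86%, SE 1.76, limma adjusted p = 0.0466), and the background of that test was 13.9% higher and 0.300% lower. Quantile normalization also turned the split of all calls in the region, from 7 higher and 0 lower to 5 higher and 6 lower, with 3 of 4 slope bins still called higher and 3 of 4 island bins called lower (background 11.7% higher and 6.52% lower).

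Absence of Rif1 was the second question. Rif1 scores were higher than wild type over the deep stretch, the slope and the second low stretch, across the giant genes Myo81F and Pzl, and no bin of the island was called. Of 43 bins, 39 were called higher and 0 lower (90.7%), against 28.2% of all bins called higher and 12.1% called lower. The 4 bins not called were those of the island, where the differences were -0.27 to 0.44 with limma adjusted p from 0.302 to 0.768. Over the 31 deep bins the difference was 2.69 to 7.29 in score, with a median of 4.63 and a median SE of 0.411, and the highest limma adjusted p was 0.00443. Division of each library by its SD outside the proximal parts lowered that median to 2.02, with 29 of 31 deep bins called. Quantile normalization lowered it to 0.56. On the level scale the same 39 of 43 were called higher (background 31.2% higher and 16.5% lower) and the median over the deep bins was 62.4%. With quantile normalization, which forces the Rif1 and wild-type distributions together, the split was 18 higher and 8 lower, including 14 higher and 3 lower in the deep stretch and 4 of 4 island bins lower (background 20.1% higher and 33.9% lower).

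Among called bins the 3 with the highest difference were all deep. From 168950 to 335320 the mean score was -7.41 and -8.59 in wild type and -0.91 and -0.51 in Rif1 (difference 7.29, SE 0.398, limma adjusted p = 0.000210). The bins from 2381700 to 2452800 and from 2251900 to 2381700, within Myo81F, followed with 5.69 (SE 0.438) and 5.59 (SE 0.404). Single windows with high Rif1 scores enter these 3 means. Examples are 265790 to 267670 (26.5 and 27.6), 2447100 to 2449000 (24.5 and 15.4) and 2261900 to 2263600 (7.68 and 8.81). With bin medians the highest deep difference was 5.94. The 3 lowest differences in mean among called bins lay in the slope bin next to the island and in the last tested bins before the limit. They were 1.76 (SE 0.163) from 4138800 to 4194100, 2.14 (SE 0.271) from 4067400 to 4138800 and 2.38 (SE 0.299) from 3461100 to 3538100. All 3 were bins in which the wild type itself was at 41.4% to 63.7% of the level scale.

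**Figure D3:**
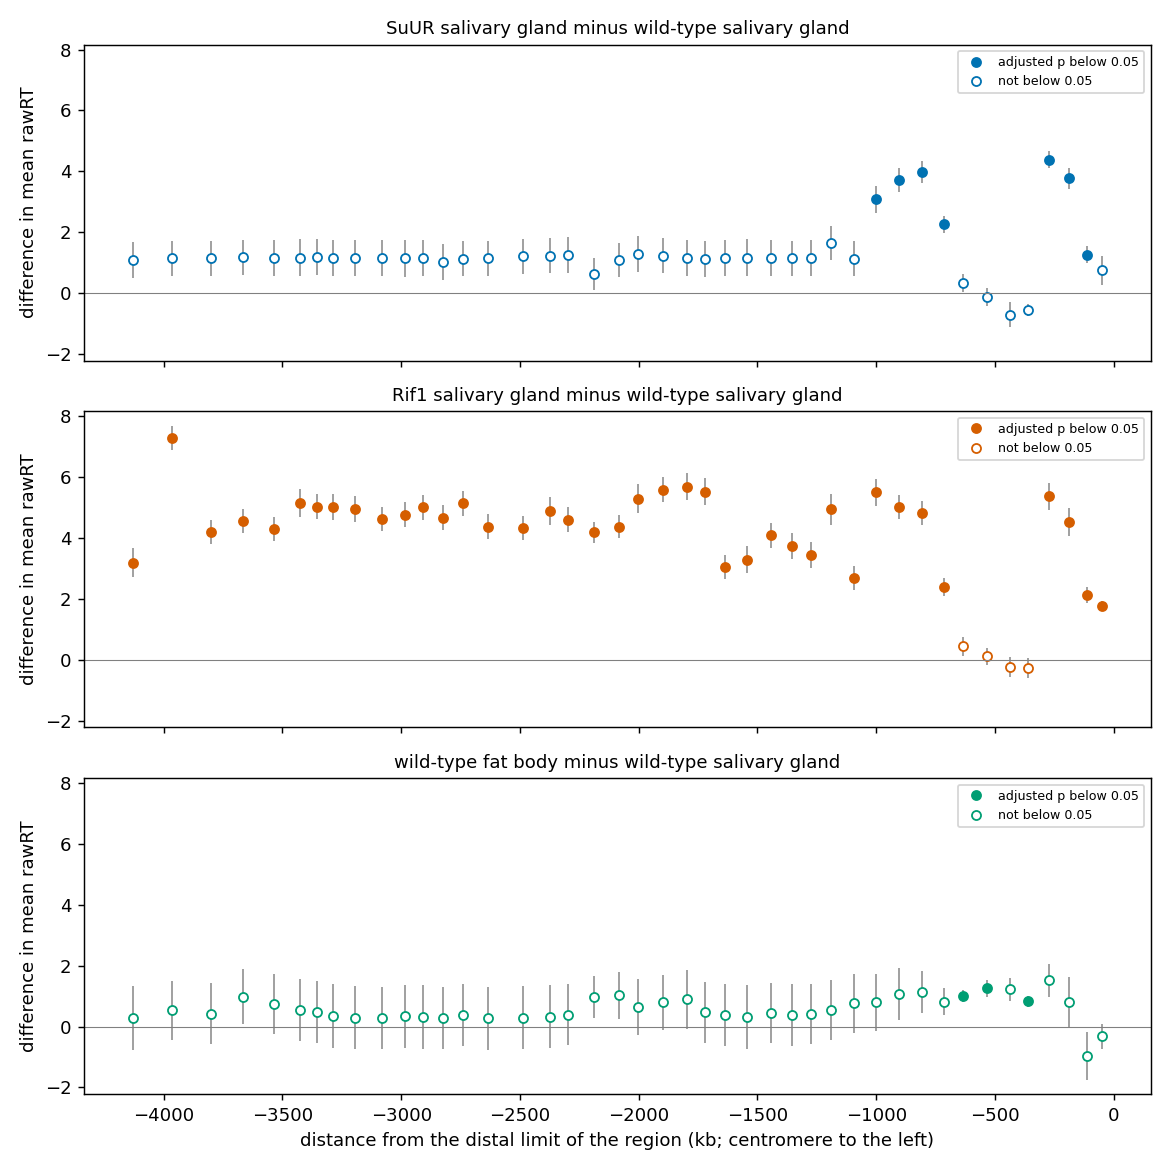
Difference in mean rawRT between groups for each of the 43 tested bins of proximal 3R against the distance from the distal limit in kb (points, limma estimate; bars, 1 SE; filled, adjusted p below 0.05). SuUR is called higher only on the slope and in the second low stretch in the score fit, Rif1 in all bins but the 4 of the island, and fat body in 3 island bins.

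The Rif1 profile dropped within the deep stretch near the 3-prime end of Myo81F. From 2452800 to 2532800 the bin mean was -2.14 and -2.89, and from 2532800 to 2624100 it was -4.87 and -5.12, while the wild type stayed at -7.46 and -8.63 and then -7.46 and -8.66. The bins from 2532800 to 3171200 had levels of 48.5% to 74.3% in replicate 1 and 40.1% to 60.2% in replicate 2. Those from 2169300 to 2532800 had 76.9% to 79.4% and 64.9% to 71.0%, a local high. Nearer the centromere, Myo81F also held bins within the range after the drop. Examples are 609110 to 748200 (63.2% and 57.2%) and 1644100 to 1810700 (62.1% and 58.3%). Both replicates showed the drop at the same bin, and the bin that follows it was called against wild type (difference 3.06, SE 0.393, limma adjusted p = 0.00217).

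Rif1 and SuUR glands were compared directly because both mutants raised scores on the slope. Rif1 was higher in the deep stretch and on 3 of 4 slope bins, and no bin of the island or the second low stretch passed the test. In all, 34 of 43 bins were called higher and 0 lower, against 18.4% of all bins called higher and 6.34% called lower. The deep bins differed by 1.56 to 6.16 (median 3.48, median SE 0.428, highest limma adjusted p 0.0365). In the second low stretch the difference was 0.76 to 1.02, with limma adjusted p from 0.0768 to 0.141 and a median SE of 0.350, which does not show that the mutants act alike there. The level scale called 2 of those 4 bins higher in Rif1 (background 17.7% higher and 6.47% lower). With all TIGER libraries in 1 fit, 24 of 31 deep bins and 0 of 4 slope bins were called higher. Quantile normalization also called 24 deep bins higher, 1 lower and 0 of 4 slope bins, where the median difference turned to -0.17 (background 15.3% higher and 14.7% lower).

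Fat body and wild-type salivary gland, both of Oregon R and both polyploid, were set side by side next. The island scored higher in the fat body, and the deep stretch could not be separated by the score. Of 43 bins 3 were called higher and 0 lower (6.98%), under the 14.0% of all bins called higher, with 8.65% called lower. The 3 bins lay on the island: from 3538100 to 3623900 the mean was -2.29 and -1.99 in the gland and -1.31 and -0.98 in the fat body (difference 1.00, SE 0.193, limma adjusted p = 0.0352), and the others differed by 1.26 (SE 0.276) and 0.83 (SE 0.193). Without either wild-type gland library 0 of 43 bins were called (3 at an unadjusted p under 0.05 without replicate 1 and 4 without replicate 2), and without fat body replicate 2 there was 1 call, lower in the fat body. With quantile normalization 1 bin was called higher and 5 lower, against 13.6% and 18.2% of all bins.

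The fat body replicates lay on both sides of the gland in the deep stretch, so the score gave differences of 0.27 to 1.03 with a median SE of 1.00 and limma adjusted p from 0.334 to 0.854. Their minima, -10.1 and -6.73, lay apart as well. On the level scale, 41 of 43 bins were called higher and 1 lower (background 29.1% higher and 17.0% lower), among them 31 of 31 deep bins, 4 of 4 slope bins and 4 of 4 island bins. The 0% of that scale comes from windows of this region, in fat body replicate 1 from a single window. These calls are therefore a description and do not separate the tissues. Over the deep bins the fat body stood a median of 7.52% above the gland, with a range of 5.89% to 14.2%. The direction turned with other scalings. The median was -1.05 in score after division by the SD outside the proximal parts and -0.19 after quantile normalization. The bin called lower, from 4067400 to 4138800, holds Gfat1, and the level there was 33.4% and 34.0% in the fat body and 41.4% and 45.1% in the gland (difference -9.54%, SE 2.06, limma adjusted p = 0.00384). In the score fit the same bin had a difference of -0.96 (limma adjusted p = 0.406).

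Follicle cells and wing discs were compared with each other on their own scale. The region was less low in wing discs, with a median of -1.07 and -1.27 over its windows, than in follicle cells, with -2.62 and -2.50. Wing discs were called higher in 34 of 43 bins and lower in 7, against 31.5% and 28.2% of all bins. The deep stretch held 28 bins called higher and 2 called lower, the slope 3 higher and 1 lower, the second low stretch 3 higher, and all 4 island bins were called lower. On the island the difference was -0.71 to -0.36 (highest limma adjusted p 0.00359), and follicle cells scored -0.03 and -0.29 in its first bin and 0.66 and 0.55 from 3742300 to 3817500.

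The follicle cell profile was uneven. The bin next to the centromere scored -7.60 and -7.23 in follicle cells and -1.55 and -1.32 in wing discs (difference 5.98, SE 0.110, limma adjusted p = 1.62e-17). Follicle cells rose to -0.71 and -0.21 from 492270 to 609110, with -1.25 and -1.49 in wing discs (difference -0.91, SE 0.124, limma adjusted p = 7.43e-06). From 609110 to 748200 they stood at -0.74 and -0.30, above the -1.67 of both wing disc libraries (difference -1.15, SE 0.110, limma adjusted p = 1.05e-07). A second local maximum lay at 2095000 to 2169300, with -1.44 and -1.30 in follicle cells and -1.24 and -1.37 in wing discs, a difference that was not called (0.07, SE 0.0879, limma adjusted p = 0.503). In the second low stretch, the Gfat1 bin scored -2.28 and -2.34 in follicle cells and -0.25 and -0.49 in wing discs (difference 1.94, SE 0.0912, limma adjusted p = 8.25e-12).

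**Figure D4:**
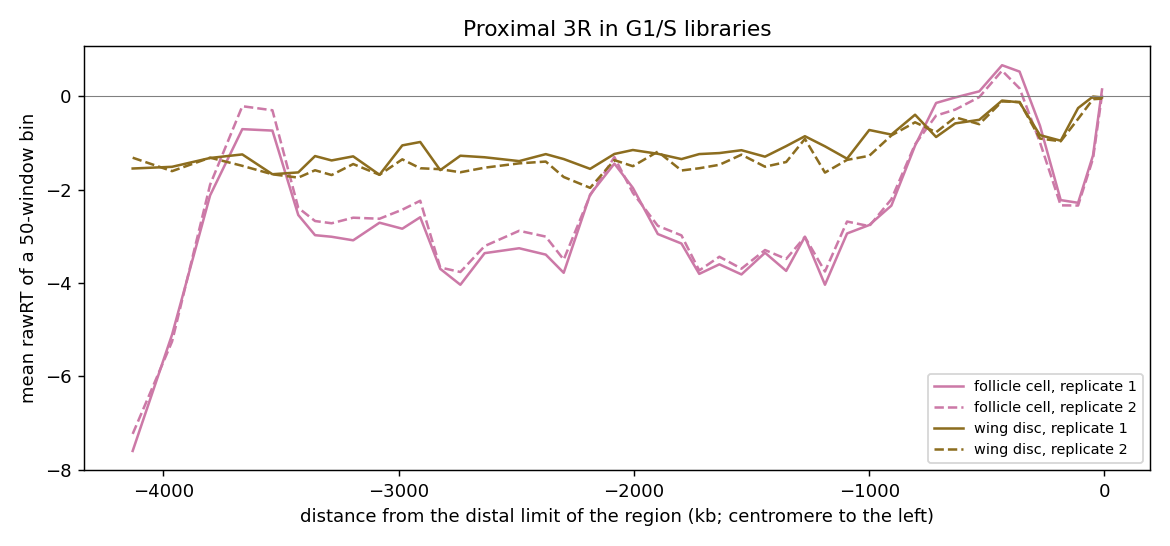
Mean rawRT of bins of 50 windows along proximal 3R in the 4 G1/S libraries against the distance from the distal limit in kb (solid, replicate 1; dashed, replicate 2). Wing disc lines stay within 2 units of 0, and follicle cell lines start at -7.60 and -7.23 by the centromere and pass 0 on the island.

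Between methods only ranks were compared, over all arms, although the lowest TIGER score differed between arms. The median percentile of the deep stretch was 1.48 and 1.55 in follicle cells, within the range of the wild-type gland (1.63 and 1.42), and 11.2 and 8.18 in wing discs. On the island follicle cells reached 68.9 and 52.4, above all other libraries, with 33.6 and 38.2 in wing discs, 32.5 and 32.7 in the fat body, 16.4 and 20.7 in the wild-type gland, 8.28 and 9.03 in SuUR and 12.1 and 4.83 in Rif1. Taking the mean percentile of each bin, wing disc libraries did not overlap the wild-type gland in 43 of 43 bins and were higher (38.4% of all bins, with 46.3% lower). Follicle cells did not overlap it in 41, with 40 higher (43.2%) and 1 lower (45.2%), although the medians of the deep stretch overlapped. The SD of the scores over the deep stretch was 2.22 in both follicle cell libraries and 0.342 and 0.445 in the wild-type gland, and its part in the count was not tested.

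The annotation places 15 protein-coding genes, 6 lncRNAs and 4 pseudogenes wholly in the region. Counted by the bin that holds the gene's start, 13 of the 15 could be tested. SuUR bins were called higher for 4 of 13 (30.8%, against 5.53% of all protein-coding genes), Rif1 bins for 8 of 13 (61.5% against 14.5%) and fat body bins for 4 of 13 (30.8% against 8.15%), and none were called lower (background 0.309%, 15.4% and 8.73%). Several of these genes share a bin, so the counts are not independent. Among the SuUR calls, Pzl and spok share a bin, as do CG42402 and Gfat1. Pzl counts through the bin of its start, although most of it lies in the deep stretch, where no SuUR bin was called by score. Parp1 and Alg-2 share a bin among the fat body calls. The gene shares were above the bin shares for SuUR (16.3% of bins) and the fat body (6.98%). For Rif1 the gene share was below the bin share (90.7%). With so few genes in shared bins, these differences were not tested and are no result about the genes.

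Most of the deep stretch is taken by 2 genes with giant introns. Myo81F, which encodes an unconventional myosin, spans 567076 to 2532932 on the plus strand, 1966 kb and 1021 windows. Its mean level was 1.74% and 2.22% in the wild-type gland, 2.63% and 2.85% in SuUR, 70.0% and 62.7% in Rif1 and 12.9% and 8.47% in the fat body. Pzl, a member of the Piezo family of mechanically gated channels, covers 2554162 to 3263582 on the minus strand (709 kb, 396 windows), and its 5-prime end lies on the slope. It averaged 1.75% and 2.18% in wild type, 7.14% and 7.92% in SuUR, 60.6% and 51.2% in Rif1 and 12.6% and 8.67% in the fat body. In both Rif1 libraries Pzl stood lower than Myo81F, while in both SuUR libraries it stood higher.

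On the slope lies spok, which encodes a cytochrome P450 of ecdysone synthesis (3322810 to 3354486, plus strand, 19 windows). Its mean score was -7.20 and -8.31 in the wild-type gland, -4.22 and -3.59 in SuUR, -2.63 and -2.70 in Rif1 and -7.67 and -5.41 in the fat body. As a level this was 4.49% and 5.31%, 33.5% and 53.7%, 73.0% and 70.4%, and 24.0% and 19.6%. Wild type was lowest and Rif1 highest, with no overlap between any groups on the level scale. The bin that holds it was called higher in SuUR (difference 3.70, SE 0.393, limma adjusted p = 0.00382) and in Rif1 (5.02, limma adjusted p = 0.000342).

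Parp1, the poly(ADP-ribose) polymerase that loosens chromatin at active genes, crosses from the slope onto the island (3461351 to 3587054, minus strand, 68 windows). It had 50.6% and 54.3% in the wild-type gland, 62.8% and 77.6% in SuUR, 84.5% and 74.8% in Rif1 and 64.7% and 63.3% in the fat body, so that wild type was below all others. CG41099 (3846729 to 3868401) lies at the distal end of the island with 81.1% and 84.3% in wild type, 60.8% and 67.9% in SuUR, 82.7% and 70.0% in Rif1 and 91.4% and 89.0% in the fat body. There SuUR was the lowest, and the bin difference of -0.57 (SE 0.205) was not called (limma adjusted p = 0.183).

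In the second low stretch, CG42402 (4077939 to 4104326) had 39.03% and 40.8% in the wild-type gland, 39.96% and 56.7% in SuUR, 78.0% and 68.9% in Rif1 and 32.8% and 37.1% in the fat body. Gfat1, the first enzyme of the hexosamine pathway (4126442 to 4137882, plus strand, 13 windows), stood at 59.8% and 66.3% in the wild-type gland and 34.1% and 34.7% in the fat body. SuUR (56.6% and 69.6%) overlapped wild type at Gfat1, and Rif1 was at 86.9% and 76.4%. CG12581 (4174632 to 4186751) was already near the arm mean, at 83.3% to 101% over the 8 libraries. Next to the limit, CG14636 (4204493 to 4215314) had 98.4% to 111%, and aux, the auxilin that uncoats clathrin vesicles and spans the limit, had 104% to 109%.

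The proximal parts of X, 2L and 3L were tested in the same fits, and proximal 2R was not summarized here. In SuUR, 9 of 22 bins of proximal X were called higher, 14 of 23 of proximal 2L and 37 of 60 of proximal 3L, next to 7 of 43 in proximal 3R. In Rif1 these counts were 16 of 22, 18 of 24 and 50 of 60, next to 39 of 43. The median difference of the Rif1 bins was 1.59, 2.30 and 3.86, next to 4.57 in proximal 3R. As median levels, with the lowest score on each arm as 0%, the wild-type gland had 65.9% and 71.7%, 51.2% and 58.3%, and 29.4% and 34.0%. Its level in proximal 3R was 1.51% and 2.03%. Rif1 had 99.8% and 95.3%, 92.8% and 89.0%, and 90.9% and 86.1%, next to 70.3% and 62.8%. Of these parts, proximal 3R thus had the largest Rif1 difference and the lowest Rif1 level. In the fat body 9 of 22, 12 of 17 and 32 of 60 were called higher, next to 3 of 43. The differences between arms were not tested, and the rest of 3R had medians of -0.04 in SuUR, 0.05 in Rif1 and 0.02 in the fat body.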

How the data were processed

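Replication timing was read from 1 table of rawRT values for 12 libraries, 2 per group in 6 groups. Reads were aligned to the dm6 assembly by the authors, who used BWA (version 0.7.17 in the submitters' processing notes), and unique alignments were tallied per 1000 alignable bases with a correction for GC content and removal of outlier windows. The deposited rawRT score of the TIGER libraries was scaled so that the arms outside underreplicated and pericentric regions have mean 0 and SD 1. Scaling of the follicle cell and wing disc scores is not given in the sources used here. The smoothed table, also deposited as a score by the authors, served only as an alternative. Read counts were not analysed here, which leaves the depth unknown and gives no interval for counting error. Positions in the table carry 5 significant digits. All value columns were matched to a sample (0 were not).

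Windows were averaged in bins of 50 (at least 25 values per library) and tested with limma 3.58.1 in R 4.3.3, with Benjamini-Hochberg adjustment over all bins and calls at an adjusted p below 0.05. Other steps used Python 3.11.15, pandas 2.3.3 and scipy 1.17.1, and the tests were checked on simulated data. The last bin, of 16 windows, was too short to test, which left 43 of 44. The methods' analysis of variance takes windows of a library as replicates, so it was run as an alternative only.

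Alternatives were bins of 25 or 100 windows, bin medians, at least 40 values per bin, quantile normalization and the smoothed table. Others were a replicate block, all TIGER libraries in 1 fit, leaving out each library and division by the SD outside the proximal parts. Unlike the authors' arm SD, that SD takes in the euchromatic underreplicated regions. After the data had been seen, the level scale and a crossed block were also tried. The members and lists were chosen with earlier results of these data known. Genes named were the 8 protein-coding genes of the region with the most windows, Parp1, Myo81F, Pzl, Gfat1 and spok, and the genes at the limit. Named Rif1 bins were the 3 highest and 3 lowest differences among those called, and other named bins were chosen after their values were seen. Sequence, repeats and genes came from the RefSeq dm6 genome and annotation.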

Additional observations from a re-analysis of the deposited data

How the results depend on the processing

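Higher calls in proximal 3R exceeded lower calls under every alternative for Rif1 against wild type, Rif1 against SuUR and wing disc against follicle cell. For Rif1 against wild type, however, quantile normalization changed 39 higher and 0 lower to 18 higher and 8 lower. For Rif1 against SuUR, all TIGER libraries in 1 fit lowered 34 higher to 24 higher of 43 (273 higher and 152 lower among all 2240 bins). Counting both directions together, the share of proximal 3R bins called stayed within a factor of 1.5 of its value, up or down. This held under every alternative in these comparisons and allows losses of this size. For SuUR against wild type (16.3%) it was 25.6% with quantile normalization, with 5 bins higher and 6 lower, 86.0% with the methods' analysis of variance and 11.6% to 16.3% without a library. For fat body against gland (6.98%) it was 2.30% in bins of 25, 4.55% in bins of 100, 0% after SD scaling (6 bins at an unadjusted p under 0.05), 2.33% with all TIGER libraries in the fit, 37.2% with the methods' analysis of variance, 97.7% on the level scale and 14.0% with quantile normalization, with 1 bin higher and 5 lower. Without a library it ranged from 0% to 6.98%: it was 0% without wild-type gland replicate 1 or 2, and 2.33%, lower in fat body, without fat body replicate 2. The cause was not tested.

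The replicate numbers pair no samples by any label, and with 2 pairs the data cannot show pairing. With the replicate block 95.3% of the bins were called for SuUR against wild type (39 higher, 2 lower; 31 of 31 deep bins higher, against 0 without the block), where same-numbered libraries had r = 0.36 over all bins, and 0% for fat body against gland (3 bins at an unadjusted p under 0.05), where same-numbered libraries deviated in opposite directions (r = -0.68 over all bins). The crossed pairing called 18.6%. The block left 39 calls for Rif1 against wild type, 35 for Rif1 against SuUR and 41 for wing disc against follicle cell.

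The median difference in score over the windows was 1.16 for SuUR against wild type, -0.30 with quantile normalization, -1.31 after SD scaling and 0.50 to 1.83 without a library. For Rif1 against wild type it was 4.26, then 0.073, 1.72 and 3.69 to 4.84. For Rif1 against SuUR it was 2.79, 0.56 with quantile normalization and 2.23 to 3.43 without a library. For fat body against gland it was 0.47, -0.15 with quantile normalization, -0.97 after SD scaling and -0.81 to 1.77 without a library (-0.81 without fat body replicate 2, -0.11 without gland replicate 2). For wing disc against follicle cell it was 1.34, 0.98 with quantile normalization, 1.68 up to position 3000000 and 1.24 to 1.46 without a library.

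Over all bins, fat body against gland gave 318 higher and 196 lower, 0 with the block, 491 and 288 crossed, 659 and 384 on the level scale, 531 and 285 with the methods' analysis of variance, 110 and 40 without fat body replicate 2, and 69 and 3 or 59 and 3 without gland replicate 1 or 2. Rif1 against SuUR gave 432 and 149, and 129 and 7 or 175 and 42 without Rif1 replicate 1 or 2. Rif1 against wild type gave 662 and 284, and 450 and 64 without Rif1 replicate 1. SuUR against wild type gave 344 and 9, and 214 and 1 or 220 and 5 without SuUR replicate 1 or 2. Wing disc against follicle cell gave 750 and 670, and 200 and 155 with the methods' analysis of variance. Quantile normalization gave 473 higher and 796 lower for Rif1 against wild type, 272 and 152 for SuUR against wild type, 308 and 413 for fat body against gland and 359 and 345 for Rif1 against SuUR. Bins of 25 or 100 windows changed the number of bins tested, to 4629 and 1173 for SuUR against wild type, and the counts with it. All TIGER libraries in 1 fit was not run for wing disc against follicle cell, which the TIGER libraries do not enter. The depth was unknown, and 2 libraries per group limit every test.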

Other observations

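Single windows of the deep stretch stood far above their surroundings in both replicates, and they are given as values chosen after they were seen. In the wild-type gland 3 of the deep windows scored above -4 in both libraries, within 2084900 to 2088900 in Myo81F. The window from 2087500 to 2088900 had 1.84 and 1.39 in wild type, -5.79 and -6.98 in SuUR, 0.44 and -2.20 in Rif1, 3.86 and 1.49 in the fat body, 4.87 and 5.27 in follicle cells and -0.24 and -0.23 in wing discs. It was thus high in wild type, fat body and follicle cells and low in SuUR.

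In SuUR 4 deep windows scored above -4 in both libraries. The window from 3052400 to 3055900 had 1.08 and 1.76 in SuUR, -7.37 and -8.61 in wild type, 14.4 and 7.29 in Rif1 and -7.99 and -5.93 in the fat body. In Rif1, 38 of 2166 windows scored above 2 in both libraries, 26 of them in the deep stretch. The highest, from 265790 to 267670, had 26.5 and 27.6 in Rif1 and -7.13 and -7.82 in wild type, and the window from 2447100 to 2449000 had 24.5 and 15.4 in Rif1. Strain differences in repeat copies were not tested.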
